A study of Mus musculus with 5 samples.

Results

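Genes of the cell division cycle were followed through the response of mouse peritoneal macrophages to poly IC, a synthetic mimic of viral double-stranded RNA, and to poly IC with ethanol. The list held 43 genes of DNA replication, cyclin-dependent kinase control and mitosis. Probe sets were taken where the platform annotation gave a single symbol, or its current name, among them, and each gene was read from its brightest probe set (by the mean over 5 arrays). That gave 40 members of 8251 measured genes. Ccnb1, Bub1b and Tyms had no probe set with a single symbol, and 31 of the 40 were bright enough to be tested. Each RNA sample was read on 1 Affymetrix MG-U74Av2 array: 1 naive, 2 poly IC and 2 poly IC plus ethanol. The naive sample was an untreated control whose label gives no sex, age, strain or pooling. The 4 treated samples were pools from female mice, 12 weeks of age, of the F1 cross C57Bl/6 x C3H. Poly IC was given at 0.1 mg per mouse, a dose that the label of the first poly IC pool leaves out, and ethanol was given orally at 6 g/kg. Ethanol without poly IC was not among the groups analysed here, so its own effect and an effect on the response to poly IC cannot be told apart.

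Cells enter division when D-type cyclins activate Cdk4, which inactivates the retinoblastoma family of pocket proteins and frees E2F factors to turn on replication genes. The MCM helicase is loaded on origins in G1, Cdk2 with cyclins E and A drives S phase, and Cdk1 with B cyclins drives mitosis until the anaphase-promoting complex degrades them. Most tissue macrophages are quiescent, although resident peritoneal macrophages can renew themselves by local division.

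The authors had scaled every array to a common target, which makes overall signal alike by design, and medians lay between 768.6 and 901.95. Cell type markers were not alike. Some macrophage markers were bright everywhere: Lyz2, the lysozyme gene, lay between 73144 and 81816 on the 5 arrays, and Csf1r, the macrophage growth factor receptor gene, between 26448 and 34885. The summed signal of 11 macrophage markers ran from 266791 (naive) to 417835 (poly IC replicate 2), but its markers did not move together. Of 10 tested, 3 rose with poly IC and 1 fell. The largest signal among them after poly IC was that of Cd14, at 47180 naive and 126411.5 and 147435 after poly IC. The largest log2 difference was that of Fcgr1 (3.06), at 3323 naive and 26225 and 33345 after poly IC. Of 7 tested markers of resident peritoneal macrophages, F10 and Selp rose and Gata6 and Tgfb2 fell. Gata6 was 7218 naive and 1169 and 1531 after poly IC, and F10 was 8930 naive and 29647 and 31310 after poly IC. Transcripts of other cells were present too. The summed signal of 13 B cell markers was 378774 in naive cells, 182968 and 166622 after poly IC, and 232545 and 246804 when ethanol was added. That of 13 neutrophil markers was 17435, then 120814 and 83776, then 34992 and 30919. That of 8 erythroid markers was 10492, then 32522 and 41978, then 29066 and 23127. Single genes held large parts of the neutrophil and erythroid sums. S100a8 made up 56818 and 40341 of the neutrophil sums after poly IC, and Prtn3, which fell, 11430 of the naive one. Tfrc made up 6911 of the naive erythroid sum. Of the 5 tested erythroid markers, 2 rose with poly IC and 0 fell. The larger rise was in Hba-a1, at 668 naive and 14514 and 26049 after poly IC. Slc4a1 (711.5, then 281 and 171) and Epor (487, then 192 and 175) were lower after poly IC but too dim to test. Of the tested B cell markers, 10 of 11 fell with poly IC, and 7 of 11 tested neutrophil markers rose while 1 fell. In RNA from a mixed sample, fewer cells of a type and less RNA per cell cannot be told apart, and the part of these cells in the results on the division genes was not tested. The 18S ribosomal RNA signal also stood apart in poly IC replicate 2, at 66548 against 5113 to 19415 on the other arrays.

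**Figure D1:**
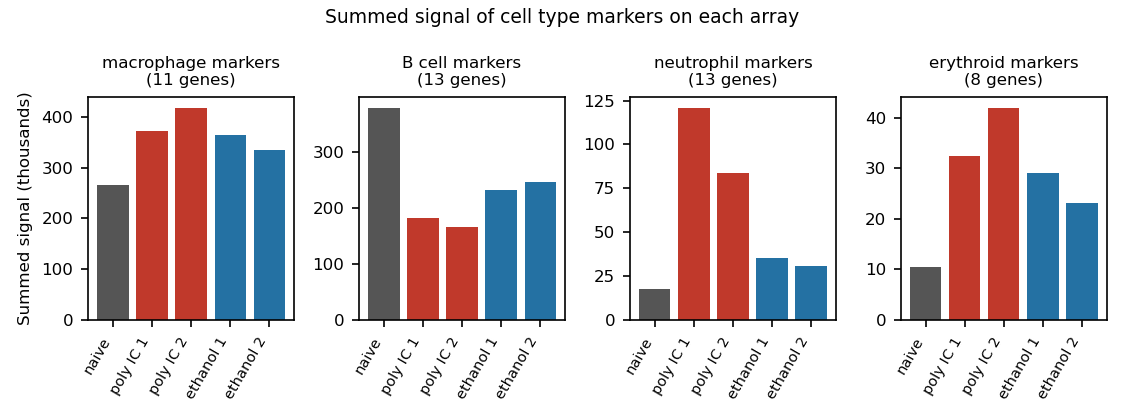
Summed scaled signal (each axis from 0) of 4 sets of cell type markers on each array, 1 bar per array. B cell markers were highest on the naive array (378774), and neutrophil markers were highest on the poly IC arrays (120814 and 83776).

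Promoter sequences of these genes were searched for words of known cell cycle sites. RefSeq windows from 250 bases before to 50 bases after the transcript start (assembly GRCm38.p6) were found for 37 of the 43 genes, all but Aurkb, Ccna2, Ccnd1, Ccnd2, Mcm4 and Rb1. An E2F site was searched on both strands as TTTGGCGC, TTTCCCGC, TTTGCCGC or TTTCGCGC, words that can overlap where one strand's match runs into the other's. It occurred for 10 of the 37 genes, or 27% of them, against 2.6% of 27025 genes in the table. The 10 were Cdc6, Cdk1, Cdk2, Lig1, Mcm3, Mcm5, Mcm6, Mcm7, Pola1 and Rbl1. A CHR element, the site of mitotic genes bound by the DREAM and MuvB complexes, was searched as TTTGAA or TTCGAA and occurred for 13 of 37, or 35.1%, against 21.7% of all genes. The NF-Y box CCAAT occurred for 27 of 37, or 73%, against 41.1%. Stretches outside every annotated gene are shown for Mcm5 and Rbl1, since they carry the same E2F word but changed in opposite directions after poly IC. Mki67 is shown for its pair of CHR words, as the mitotic gene with the largest difference. Capitals mark the E2F matches of Mcm5 and Rbl1 and the CHR matches of Mki67, whose stretch also holds a CCAAT word in lower case. All stretches read 5′ to 3′ along the gene's strand, and the Mcm5 capitals hold overlapping matches on both strands. A match describes these letters and is not a tested site.
Mcm5, chr8:75109316-75109407, plus strand: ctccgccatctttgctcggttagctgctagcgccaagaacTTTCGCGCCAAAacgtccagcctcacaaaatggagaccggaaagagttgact
Rbl1, chr2:157204535-157204592, minus strand: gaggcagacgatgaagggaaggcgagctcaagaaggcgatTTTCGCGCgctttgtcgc
Mki67, chr7:135716451-135716535, minus strand: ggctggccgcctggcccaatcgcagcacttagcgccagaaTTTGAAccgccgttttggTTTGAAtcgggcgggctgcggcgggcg

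The first comparison set the 2 poly IC pools against the 1 naive array, between which the B cell and neutrophil marker sums also differed. Cyclin D2 and the proliferation marker Mki67 rose, each about as much as the other, and the pocket protein gene Rbl1 rose less. Cdk2, Mcm7, Ccnd1, Tk1, Rb1, Mcm5 and Cdk4 fell. All 10 were called by limma at an adjusted p under 0.05, 3 of 31 tested members higher and 7 lower. That is 32.3% of the tested members, beside 31.8% of 5581 tested genes, so the share called was near the background. By direction, 11.7% of all genes were called higher and 20.1% lower. Log2 differences are of signal plus 250, which understates the change of dim genes, and the single naive array was assumed to vary like the treated pools. Below 0 lay 26 of 31 members, or 83.9%, against 59.2% of all genes, and the median log2 difference was -0.49 for the members and -0.16 for all genes. With each array centred on its median, those medians were -0.29 and 0.04, and the calls were 3 higher and 5 lower for members and 843 higher and 721 lower for all genes, against 654 and 1121 without centring. The count of 7 members lower was 3 without poly IC replicate 2, and 12 without either ethanol array.

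**Figure D2:**
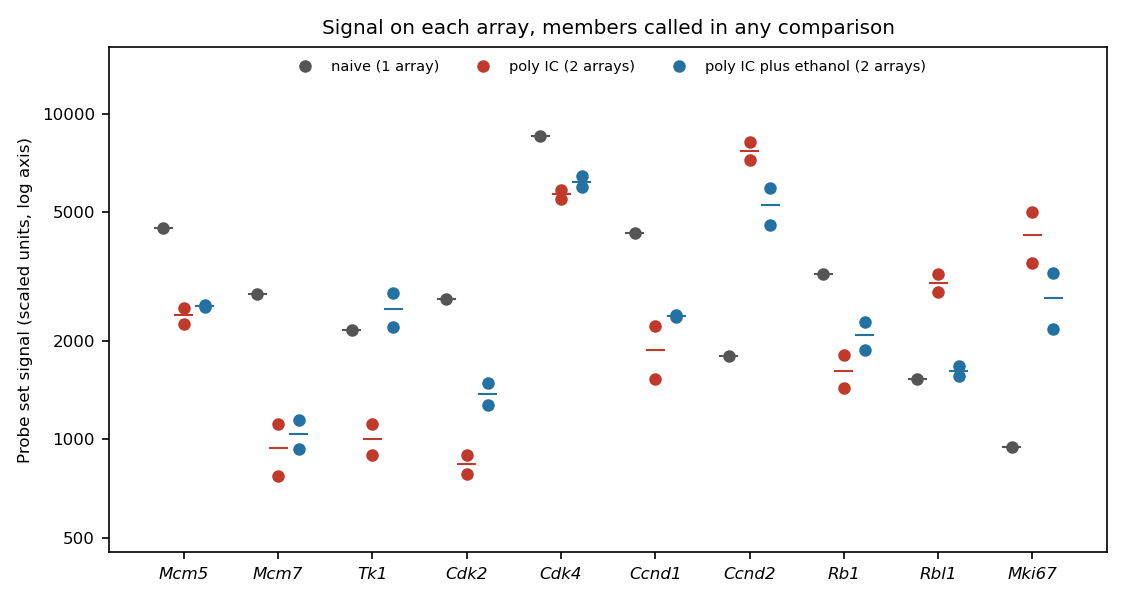
Probe set signal (scaled units, log axis) of the 10 members called in any comparison, 1 point per array, with a line at each group's mean. Both poly IC arrays lay above the naive array for Ccnd2, Rbl1 and Mki67 and below it for the other 7, and the ethanol arrays of Tk1 and Rbl1 lay near the naive array.

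D-type cyclins divided in direction. Ccnd2, which encodes cyclin D2, read 1805 in naive cells, 7196 and 8163 after poly IC, and 4541 and 5906 when ethanol was added. All treated arrays were above the naive one, and the poly IC and ethanol arrays did not overlap. The rise with poly IC was 1.95 log2 units (SE 0.22, adjusted p = 0.000116). Ccnd1, encoding cyclin D1, was 4293 in naive cells and 2223 and 1536 after poly IC and 2404 and 2373 in the ethanol pools, and fell by 1.11 (SE 0.25, adjusted p = 0.007). Every treated array lay below the naive one for Ccnd1. Ccnd3 was 6817 naive and 4545 and 5040.0 with poly IC, a difference of -0.49 (SE 0.19, adjusted p = 0.0767) that did not pass. Leaving out poly IC replicate 2 ended the call of Ccnd1 (-0.88, adjusted p = 0.0531). Its other probe set was dim, at 464 in naive cells and 618 and 484 after poly IC.

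The kinase genes Cdk2 and Cdk4 fell. Cdk2, which acts with cyclins E and A at the entry to S phase, was 2692 in naive cells and 784 and 894 after poly IC and 1277 and 1486 in the ethanol pools. The 3 groups did not overlap, and poly IC was the lowest of them. The fall was 1.44 (SE 0.26, adjusted p = 0.00257), and the call held in all 11 alternatives run. Cdk4, the partner of the D cyclins, was 8505 naive, 5482 and 5828 after poly IC and 5930 and 6411 in the ethanol pools, so the treated arrays lay close together below the naive one. It fell by 0.57 (SE 0.18, adjusted p = 0.0372). A second Cdk4 probe set read 2399 naive, 1574 and 1956 after poly IC and 2286 and 2549 in the ethanol pools, also lowest after poly IC. A second Cdk2 probe set was below the brightest control on the naive and both poly IC arrays. The Cdk4 call was the least stable of the 10. It was lost without either poly IC array (-0.53 without replicate 1 and -0.61 without replicate 2). It was also lost after both rescalings and with eBayes without the trend. Ccne1, cyclin E1, did not pass (-0.23, 95% interval -0.83 to 0.37).

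Among origin licensing and helicase genes, all 7 tested members had a log2 difference below 0 and 2 were called. Mcm7 was 2795 in naive cells and 1113 and 771.6 after poly IC and 1145 and 934 in the ethanol pools, and fell by 1.37 (SE 0.29, adjusted p = 0.00614). Mcm5 was 4458 naive, 2266 and 2539 after poly IC and 2555 and 2587 in the ethanol pools, and fell by 0.83 (SE 0.21, adjusted p = 0.0127). On the probe sets used, every treated array was below the naive one for both subunits, and the poly IC and ethanol arrays overlapped for Mcm7 and nearly met for Mcm5. Leaving out poly IC replicate 1 ended the Mcm5 call (-0.76, adjusted p = 0.0814). A second, dimmer Mcm5 probe set went another way, at 404 in naive cells, 775.6 and 391.8 after poly IC and 587 and 864 in the ethanol pools, with 3 of 4 treated arrays above naive. The other MCM subunits did not pass: Mcm3 differed by -0.63 (95% interval -1.13 to -0.13, adjusted p = 0.0572), Mcm4 by -0.48 (-1.12 to 0.17) and Mcm2 by -0.12 (-0.70 to 0.46). Cdc6, which loads the helicase, and Cdc45, which activates it, differed by -0.78 and -0.46 with standard errors of 0.46 and 0.45. Cdc6 read 273.9 and 789.4 after poly IC, the first below that array's brightest unspiked control probe set (375.7).

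Of the genes for nucleotide precursors and DNA synthesis, 1 of 6 tested members passed. Tk1, the thymidine kinase of the salvage pathway, was 2169 in naive cells and 1114 and 895 after poly IC, and fell by 0.95 (SE 0.26, adjusted p = 0.0178). The call did not hold without poly IC replicate 2 (-0.83, adjusted p = 0.095), without the filter, with quantile normalization, and with the mean of its probe sets, of which the second was dim (84.6 to 191.4). The ribonucleotide reductase subunits Rrm1 and Rrm2 differed by -0.72 (SE 0.32, adjusted p = 0.112) and -0.88 (SE 0.44, adjusted p = 0.161). Rrm2 read 391.1 and 345.4 after poly IC, near the brightest unspiked controls of those arrays (375.7 and 346.8). The replicative clamp Pcna was the brightest member, at 9052 naive and 7903 and 9234 with poly IC, and its groups overlapped (-0.08, 95% interval -0.56 to 0.40). Pola1, the catalytic subunit of polymerase alpha, and the ligase gene Lig1 did not pass either (-0.21, SE 0.30, and -0.93, SE 0.50). Lig1 read 664.7 and 209.3 after poly IC, the second below that array's brightest unspiked control (346.8).

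The pocket proteins, which hold E2F factors in check, moved in opposite directions. Rb1, the retinoblastoma gene, was 3208 in naive cells and 1812 and 1434 after poly IC and 1882 and 2298 in the ethanol pools, and fell by 0.89 (SE 0.24, adjusted p = 0.019). Rbl1, which encodes its relative p107, was 1536 in naive cells and 2825 and 3209 after poly IC, and rose by 0.87 (SE 0.22, adjusted p = 0.0146). Both calls were lost without poly IC replicate 2 (adjusted p of 0.115 for Rb1 and 0.101 for Rbl1). The Rb1 call was also lost after either rescaling and without the filter. A second Rb1 probe set was 755.6 naive, 597 and 499.9 after poly IC and 691 and 883 in the ethanol pools, again lowest after poly IC. Cdkn2c, which encodes the Cdk4 inhibitor p18, was 1817 naive and 756 and 1341 with poly IC and did not pass (-0.71, SE 0.32, adjusted p = 0.122).

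Mki67 stood alone among the tested G2 and mitosis members in being called, 1 of 9. Its signal was 949 in naive cells and 4994 and 3477 after poly IC and 3251 and 2185 in the ethanol pools. All treated arrays were above the naive one, and every poly IC array was above every ethanol array. The rise was 1.88 (SE 0.29, adjusted p = 0.000884) and was called in all 11 alternatives. The other probe set of Mki67 was dim, at 354 naive, 519 and 720 after poly IC and 536 and 657 in the ethanol pools, also lowest on the naive array. No other tested mitosis member was called. Ccna2 (cyclin A2) was 1733 naive and 1800.4 and 1836 with poly IC, a difference of 0.06 (95% interval -0.44 to 0.56). Ccnb2 (cyclin B2) differed by -0.54 (SE 0.22, adjusted p = 0.0923), the anaphase activator Cdc20 by -0.58 (SE 0.31) and the spindle checkpoint gene Mad2l1 by -0.47 (SE 0.33). Cdk1, Plk1, Birc5 and Cks2 lay between -0.42 and 0.03. The probe sets of Plk1, a mitotic kinase gene, disagreed. The one used read 1372 in naive cells, 1152 and 1225 after poly IC and 895 and 1029.7 in the ethanol pools. Another, nearly as bright on average, read 435, then 739.8 and 1056, then 1575 and 1653, lowest in naive cells and highest in the ethanol pools. The dimmest lay between 195.6 and 335.6. The direction for Plk1 therefore depends on the probe set.

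**Figure D3:**
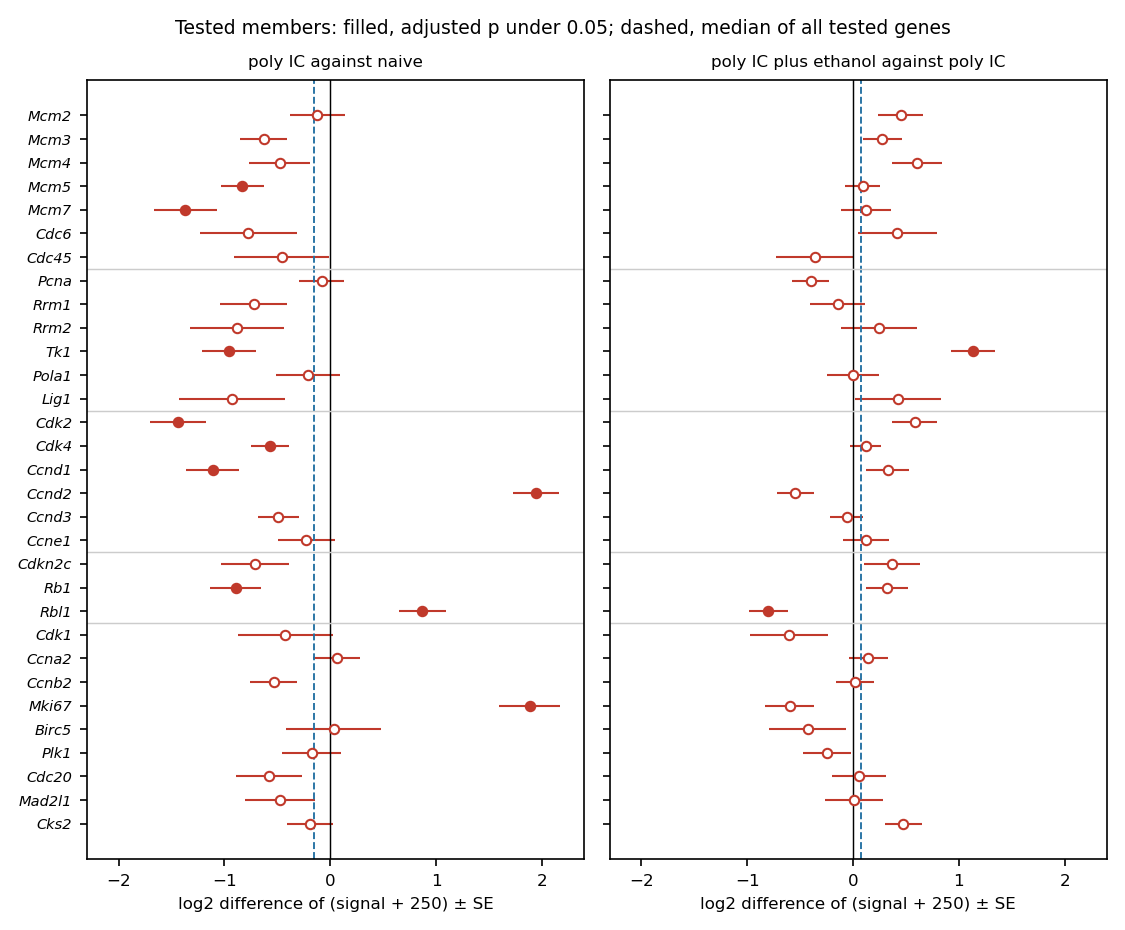
Log2 difference of signal plus 250, with its SE, for the 31 tested members, ordered by role from origin licensing (top) to mitosis (bottom), in both comparisons. Filled points have an adjusted p under 0.05, and the dashed line is the median of all tested genes (-0.16 on the left, 0.07 on the right).

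The comparison of poly IC plus ethanol with poly IC asks how ethanol alters these levels, which is the question of the series. Tk1 rose and Rbl1 fell, and no other member was called. That is 2 of 31, or 6.45%, beside 10.6% of all tested genes (5.77% higher and 4.8% lower). The median log2 difference was 0.12 for the members and 0.07 for all genes. All genes gave 322 higher and 268 lower calls, and 194 and 286 after centring, while the members gave 1 of each in both. This comparison shares the poly IC arrays with the one before, so a high or low poly IC value enters both with opposite sign.

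Tk1 read 1114 and 895 after poly IC, against 2210 and 2813 in the ethanol pools and 2169 in naive cells. The poly IC arrays were the lowest, and both ethanol arrays were above the naive one. The rise with ethanol was 1.14 (SE 0.21, adjusted p = 0.00981), after -0.95 for poly IC against naive. Rbl1 was 2825 and 3209 after poly IC and 1565 and 1682 in the ethanol pools, beside 1536 naive. The ethanol arrays lay just above the naive one and far below poly IC, and the fall with ethanol was 0.80 (SE 0.18, adjusted p = 0.0234), after 0.87 for poly IC against naive. Tk1 did not pass without poly IC replicate 2 (1.01, adjusted p = 0.0975) and with eBayes without the trend (adjusted p = 0.0562). Rbl1 did not pass without poly IC replicate 1 (adjusted p = 0.102) or replicate 2 (0.216), without the filter (0.0708) and with eBayes without the trend (0.0717).

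The members with the largest rises after poly IC were lower on both ethanol arrays than on either poly IC array, but neither difference passed. For Ccnd2 it was -0.54 (95% interval -0.94 to -0.15, adjusted p = 0.0834) and for Mki67 -0.60 (-1.12 to -0.07, adjusted p = 0.142). Choosing members by a rise measured on these same poly IC arrays favours a lower ethanol value. The share of all genes whose arrays separate this way was not counted. Over the 12 alternatives the difference ran from -0.72 to -0.36 for Ccnd2 and from -0.86 to -0.34 for Mki67. The largest were without ethanol replicate 2 for Ccnd2 and without ethanol replicate 1 for Mki67. In each case the array left out was the ethanol array nearer to poly IC, so a larger difference had to follow. Mcm4, a subunit of the same helicase, was 2188 naive, 1955 and 1145 after poly IC and 2345 and 2499 in the ethanol pools. Both ethanol arrays of Mcm4 were above the rest, with a difference of 0.61 (SE 0.23, adjusted p = 0.138). Cdk2 lay between its poly IC and naive levels, with a difference of 0.58 (SE 0.21, adjusted p = 0.121). Among other members that fell with poly IC, the differences with ethanol were 0.12 for Mcm7 (95% interval -0.42 to 0.66), 0.09 for Mcm5 (-0.29 to 0.47) and 0.12 for Cdk4 (-0.21 to 0.45). Cdk4 was not called for poly IC plus ethanol against naive (-0.45). Its second probe set read 2286 and 2549 in the ethanol pools, near the naive 2399. Cdk1, the mitotic kinase, was 933 naive, 751 and 527 after poly IC and 428 and 246 in the ethanol pools. Its ethanol mean lay below the brightest unspiked control probe set, and the difference of -0.60 (SE 0.36, adjusted p = 0.338) did not pass.

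Poly IC plus ethanol against naive gave 4 called members of 31, or 12.9%, beside 16.6% of all tested genes. Ccnd2 (1.40, SE 0.22, adjusted p = 0.00166) and Mki67 (1.28, SE 0.29, adjusted p = 0.0136) were higher, and Mcm7 (-1.24, SE 0.29, adjusted p = 0.0183) and Mcm5 (-0.74, SE 0.21, adjusted p = 0.0375) were lower. Of all genes 8.39% were called higher and 8.26% lower, 468 and 461 genes, and 497 and 270 after centring. Centring ended the Mcm5 call (-0.63, adjusted p = 0.0827), and leaving out either poly IC array ended it too (adjusted p of 0.0784 and 0.0787). Cdk2 (-0.85, adjusted p = 0.0541) and Ccnd1 (-0.78, adjusted p = 0.0576) did not pass. Without ethanol replicate 1 there were 6 members lower, and without ethanol replicate 2 there were 5. Tk1 and Rbl1 differed from the naive array by 0.18 (95% interval -0.39 to 0.76) and 0.07 (-0.43 to 0.57).

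The 9 members with a mean signal under 513 were too dim to test and are described by their signals. The brightest unspiked control probe set read 299.6 to 443.8, depending on the array. E2f1, the E2F factor that drives S phase genes, was 622 naive, 40.9 and 76.6 after poly IC and 373 and 217 in the ethanol pools, and naive was at least 1.72-fold above poly IC. Aurkb, the kinase of the chromosomal passenger complex, was 1002 naive, 239 and 324 after poly IC and 430.0 and 340.3 in the ethanol pools, at least 2.77-fold above poly IC. On the probe sets used, both were well above the controls on the naive array and below them on the poly IC arrays. The other E2f1 probe set read 192.9 naive, 47.1 and 259.4 after poly IC and 132.0 and 52.1 in the ethanol pools. It lay below the brightest unspiked control on every array. Prim1, the primase subunit, was 642 naive, 234 and 24.4 after poly IC and 257 and 221 in the ethanol pools, at least 1.78-fold above poly IC. Mcm6 was 232.5 naive, 426 and 439.8 after poly IC and 112 and 74.4 in the ethanol pools. When all genes were tested without the filter, E2f1 passed for poly IC against naive (adjusted p = 0.0218), whereas Aurkb (0.056) and Prim1 (0.0725) did not, nor did Mcm6 for ethanol (0.0828). The other dim members were Top2a, which untangles DNA, the spindle motor Kif11, the mitotic kinases Aurka and Bub1, and the Cdk inhibitor Cdkn1b. Bub1 was below the brightest unspiked control on all 5 arrays. The Tyms probe sets, whose symbol is shared with a pseudogene, read 676.5 and 610.2 on the naive array, 937 and 603 on the first poly IC array and 1421 and 570.0 on the second.

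Genes of the same processes outside the members were called at shares of 35.7% (replication), 34.6% (mitosis) and 27.8% (G1 regulators) after poly IC, beside 31.8% of all genes. Of 28 tested replication genes, 8 fell and 2 rose (median -0.58). Those that rose were Rfc3 (1.38) and Dck (1.26). Pold1, the catalytic subunit of polymerase delta, was 3045 naive, 997 and 324 after poly IC and 1326 and 2183 in the ethanol pools, and fell by 1.96 (SE 0.44, adjusted p = 0.00754). The origin recognition subunit Orc5 fell by 1.77 (SE 0.34) and the single-strand binding protein gene Rpa1 by 1.55 (SE 0.26). Of 26 tested mitosis genes, 7 fell and 2 rose (median -0.33). Pttg1 (0.91) and Lmnb1 (0.75) were the genes that rose. The largest falls were in Racgap1, a cytokinesis regulator (2190.0 naive, 384 and 517 with poly IC), Smc4, a condensin subunit (-1.62, SE 0.28), and Incenp, the partner of Aurkb (-1.50, SE 0.49). Incenp lost its call without poly IC replicate 1 (-0.90, adjusted p = 0.142), after either rescaling, and in 4 other alternatives. Of 18 tested G1 regulators, 3 fell and 2 rose (median -0.33). Myc was 5584 naive and 11857 and 10702 after poly IC, a rise of 0.98 (SE 0.18). Cdkn1a, which encodes the Cdk inhibitor p21, rose from 1461 to 3741 and 3706 (1.22, SE 0.21, adjusted p = 0.00163), while the antiproliferative gene Tob1 fell by 1.77 (SE 0.22) and Ccng2, an atypical cyclin of quiescent cells, by 1.11 (SE 0.22).

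**Figure D4:**
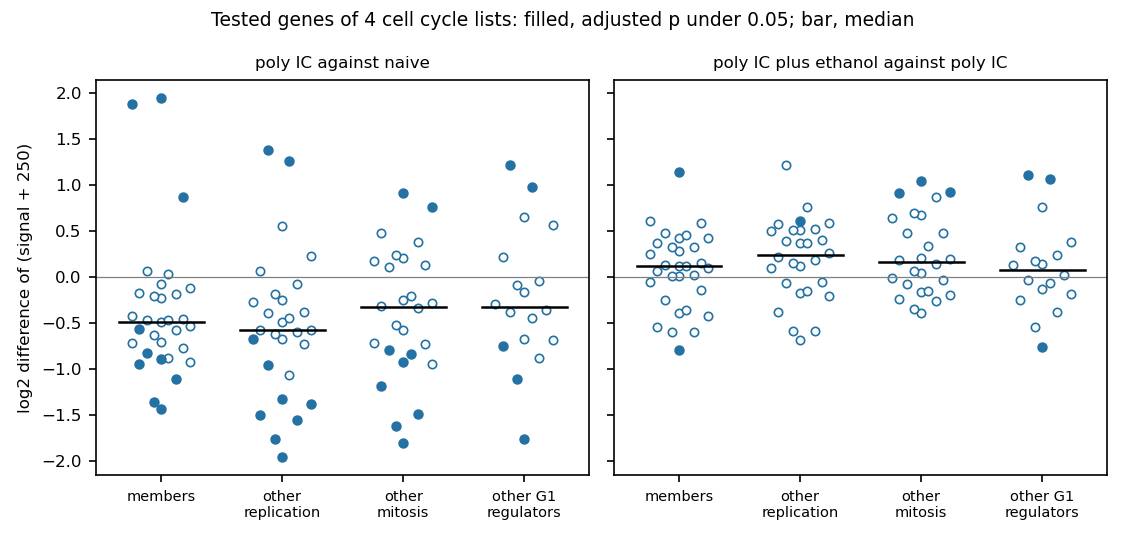
Log2 differences of signal plus 250 for tested genes of 4 lists: the 31 members, 28 other replication genes, 26 other mitosis genes and 18 other G1 regulators. Filled points have an adjusted p under 0.05 and bars are medians, which lie between -0.58 and -0.33 for poly IC against naive and between 0.07 and 0.23 for poly IC plus ethanol against poly IC.

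With ethanol, 1 of 28 other replication genes rose and none fell, 3 of 26 mitosis genes rose and none fell, and 2 of 18 G1 regulators rose and 1 fell, all by limma over all genes, of which 5.77% were called higher and 4.8% lower. At an unadjusted p under 0.05 stood 9 of the 28 replication genes, 4 of the 26 mitosis genes and 5 of the 18 G1 regulators, beside 1441 of all 5581. Racgap1 rose to 1222 and 1148 (1.04, SE 0.25, adjusted p = 0.0306), the chromatin protein gene Hmgb2 rose from 958 and 880.2 to 1880 and 2061 (0.93, SE 0.20) and the centrosome kinase gene Nek2 from 2316 and 2464 to 4806 and 4616 (0.91, SE 0.17). Rfc2, of the clamp loader, rose by 0.61 (adjusted p = 0.0491). Ccng2 was 6398 and 4979 with ethanol, near the naive 5627, and rose by 1.11 against poly IC (SE 0.18, adjusted p = 0.00601). Cdkn2d, which encodes the inhibitor p19, rose from 3805 and 3061 to 7315 and 7542, above the naive 3846 (1.07, SE 0.17, adjusted p = 0.00488). Tfdp1, the dimer partner of E2F factors, fell by 0.77 (SE 0.17, adjusted p = 0.0217). Without poly IC replicate 1 the calls of Racgap1, Hmgb2, Nek2, Rfc2, Ccng2 and Tfdp1 were lost (adjusted p of 0.154, 0.0913, 0.0849, 0.26, 0.059 and 0.151). Without poly IC replicate 2 those of Racgap1, Hmgb2, Nek2, Rfc2, Cdkn2d and Tfdp1 were lost (0.103, 0.146, 0.0794, 0.216, 0.0682 and 0.141). The Rfc2 call also went without ethanol replicate 1 (0.0666) and after either rescaling, and that of Racgap1 after either rescaling.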

How the data were processed

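Per the labels, Microarray Suite 5.0 and Data Mining Tool 3.0 were the software. The deposited values are intensities, 1 linear signal per probe set, scaled by the authors globally to a target of 2500, so a change in total RNA cannot be seen. Of 12488 probe sets, 10833 had 1 platform symbol, updated by Entrez ID through RefSeq (GRCm38.p6, for names). The brightest probe set stood for a gene. A filter at the 40th percentile of mean signal (513) left 5581 genes to test.

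The model, on log2(signal + 250), was limma's (version 3.58.1, R 4.3.3; a mean for each of 3 groups, eBayes with trend, 2 residual and 7.63 prior degrees of freedom). Two-sided p-values, with Benjamini-Hochberg adjustment across the 5581 genes, measure the spread between pools. The number of arrays limits the precision. The fit was tested on simulated data for ethanol plus poly IC against poly IC only, with independent noise alike on every array. The comparisons with the naive array were not tested that way. A fold is a lower bound where the lower group's mean was under its arrays' average for the brightest unspiked control (19 such probe sets). Alternatives changed the offset, filter, scaling, variance model, probe set rule and arrays, or added a replicate block. Members called in any comparison and the 3 with the largest difference in each are given on every array. Of each other cell cycle list, up to 3 called genes with the largest difference in each of the first 2 comparisons are named. So are the called genes that rose with poly IC. Members and lists were chosen with earlier results of these data known.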

Additional observations from a re-analysis of the deposited data

How the results depend on the processing

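None of the called member differences changed sign in any alternative run. Of uncalled differences, Mcm7 for ethanol against poly IC ranged from -0.085 without poly IC replicate 2 (a reversal) to 0.331 without replicate 1, and Cdkn2d for poly IC against naive to 0.036 after centring; the cause was not tested. Leaving out 1 array at a time gave these ranges. For poly IC against naive, 2 to 3 members were higher and 3 to 12 lower, and 1158 (without poly IC replicate 2) to 2367 genes (without ethanol replicate 2) were called. For ethanol against poly IC, 0 to 1 were higher and 0 to 3 lower, and 139 (without poly IC replicate 2) to 1076 genes (without ethanol replicate 1) were called. For ethanol plus poly IC against naive, 2 were higher and 1 to 6 lower, and 720 (without poly IC replicate 1) to 1520 genes (without ethanol replicate 1) were called. Quantile normalization left 4 members lower for poly IC against naive. For ethanol against poly IC, eBayes without the trend called 0 members higher, 0 lower and 86 genes. Testing without the filter called 0 members lower and 324 genes. For ethanol plus poly IC against naive, members lower numbered 4 with the larger offset, 0 without the filter, and 1 each after centring, with quantile normalization, without the trend and with the mean of probe sets. Without the trend that comparison gave 1 member higher and 579 genes. Pool numbers were shared by the poly IC and ethanol groups, but the deviations of same-numbered pools correlated at only 0.0501 across genes, and with 2 pairs nothing shows that the numbers pair them. With the replicate block on the 4 treated arrays, ethanol against poly IC gave 3 members lower, with Ccnd2 and Mki67 added to Rbl1, and 1 higher. Each fold printed for a dim member is a bound, since its lower group's mean lay below the unspiked controls.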
